A study of Mus musculus with 6 samples.

Results

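The 33 genes described here encode the enzymes of sterol and fatty acid synthesis and the proteins that control them. They were taken by symbol from a fixed list, after the deposited transcript counts were summed into 55263 genes. All 33 were found, and all 33 passed the filter on low counts that left 17113 genes for testing. The cells were mouse bone marrow-derived macrophages, grown in culture from marrow progenitors. There were 3 groups of 2 libraries: control cells, cells treated with LPS (lipopolysaccharide, a part of the outer bacterial membrane that activates Toll-like receptor 4), and cells treated with LPS and HACA. The genotype is given as wild type for the control libraries, and for the others that field holds the treatment in its place. The labels give no dose, time or animal age and do not spell out HACA. Whether the 2 libraries of a group are separate cultures or animals is not stated. The p-values therefore reflect the spread between libraries alone, and that spread may be technical.

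Cholesterol is built from acetyl-CoA through mevalonate, the isoprenoid diphosphates, squalene and lanosterol. The transcription factors encoded by Srebf2 and Srebf1 start as precursors in the endoplasmic reticulum membrane, where Insig1 and Insig2 retain them through the escort protein Scap while sterol is plentiful. When sterol falls, Scap carries them to the Golgi for cleavage, and the freed factors act at sterol elements in the promoters of sterol genes (mainly Srebf2) and fatty acid genes (mainly Srebf1), often beside NF-Y. Macrophages draw on both pathways for membranes, and lipid synthesis in these cells is known to be tied to Toll-like receptor signalling.

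The promoters shown are those of the 6 members with the largest called changes in LPS against control that had a table entry, with those of the 2 factors. Each line gives the 250 bases before the RefSeq start site on GRCm38.p6, 5′ to 3′ along the gene. Capitals mark the sterol element TCACNCCAC and the NF-Y box CCAAT, on either strand.
Hsd17b7 (chr1:169969206-169969455, minus strand): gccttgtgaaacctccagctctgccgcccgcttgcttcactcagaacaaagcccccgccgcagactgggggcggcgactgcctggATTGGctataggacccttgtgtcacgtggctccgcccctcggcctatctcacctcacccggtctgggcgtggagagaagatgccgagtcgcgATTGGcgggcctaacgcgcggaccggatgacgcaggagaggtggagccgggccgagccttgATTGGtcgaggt
Idi1 (chr13:8885356-8885605, plus strand): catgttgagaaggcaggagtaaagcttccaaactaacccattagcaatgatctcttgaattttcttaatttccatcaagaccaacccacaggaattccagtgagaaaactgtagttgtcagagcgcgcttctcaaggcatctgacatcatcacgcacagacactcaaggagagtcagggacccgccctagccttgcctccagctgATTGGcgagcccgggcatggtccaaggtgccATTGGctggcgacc
Hmgcs1 (chr13:119690101-119690350, plus strand): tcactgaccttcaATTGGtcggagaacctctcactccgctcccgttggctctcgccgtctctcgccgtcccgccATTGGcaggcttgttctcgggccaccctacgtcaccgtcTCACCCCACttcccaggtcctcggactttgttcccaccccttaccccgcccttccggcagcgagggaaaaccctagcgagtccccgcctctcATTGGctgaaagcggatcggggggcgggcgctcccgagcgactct
Cyp51 (chr5:4104698-4104947, minus strand): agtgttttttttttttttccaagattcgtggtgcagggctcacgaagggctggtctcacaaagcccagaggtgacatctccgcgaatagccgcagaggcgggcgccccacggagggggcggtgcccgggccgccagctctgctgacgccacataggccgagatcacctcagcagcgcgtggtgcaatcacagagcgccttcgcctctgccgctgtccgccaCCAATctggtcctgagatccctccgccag
Insig1 (chr5:28071162-28071411, plus strand): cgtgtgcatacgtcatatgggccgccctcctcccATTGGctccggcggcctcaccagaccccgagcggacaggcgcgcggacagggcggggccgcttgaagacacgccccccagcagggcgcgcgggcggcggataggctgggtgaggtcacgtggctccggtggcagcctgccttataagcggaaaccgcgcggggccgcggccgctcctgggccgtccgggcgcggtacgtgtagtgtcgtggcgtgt
Msmo1 (chr8:64733579-64733828, minus strand): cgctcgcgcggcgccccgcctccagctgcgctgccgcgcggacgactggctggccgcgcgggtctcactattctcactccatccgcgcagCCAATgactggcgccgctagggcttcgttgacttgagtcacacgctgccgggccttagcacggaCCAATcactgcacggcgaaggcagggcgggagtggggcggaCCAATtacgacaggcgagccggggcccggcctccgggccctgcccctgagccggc
Srebf2 (chr15:82147019-82147268, plus strand): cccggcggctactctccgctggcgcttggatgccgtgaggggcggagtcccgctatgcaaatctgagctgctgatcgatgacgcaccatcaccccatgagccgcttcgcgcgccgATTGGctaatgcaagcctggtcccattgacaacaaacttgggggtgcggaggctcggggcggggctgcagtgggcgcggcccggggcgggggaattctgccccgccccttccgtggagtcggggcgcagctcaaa
Srebf1 (chr11:60222582-60222831, minus strand): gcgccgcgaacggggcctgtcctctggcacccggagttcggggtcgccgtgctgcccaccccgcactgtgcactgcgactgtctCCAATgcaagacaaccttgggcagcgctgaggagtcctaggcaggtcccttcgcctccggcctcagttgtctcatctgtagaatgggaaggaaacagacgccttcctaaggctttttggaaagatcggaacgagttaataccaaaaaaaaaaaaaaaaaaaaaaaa

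Over the windows of 250 bases before to 50 bases after a start site, 34 windows of 26 members were searched. Scd1, Sqle, Fads1, Fdps, Scd2 and Fdft1 were not in the promoter table. Members on chromosome 18, which is that of Stard4, were left out of the search, a limit not set for the shares of all promoters. The bases after the start site were found in an annotated transcript of the gene for 30 of the 34 windows. The exceptions were those of Hmgcs1, Sc5d and Nsdhl and 1 of the 3 of Srebf1, which is not the one printed. The sterol element TCACNCCAC was in 1 of the 34 windows, that of Hmgcs1, where its first base lay at -137, and in 1.24% of all 32851 promoters. The NF-Y box CCAAT was in 22 of the 34, from 21 of 26 members, and in 37.4% of all promoters. The GC box GGGCGG was in 26 of the 34 and in 35.7% of all promoters, and the E-box CACGTG was in 6 of the 34 and in 7.15% of all promoters. The E-box windows belonged to Hsd17b7, Insig1, Sc5d, Dhcr7 and Scap, the last with 2. The 2 windows of Scap share 232 bases and the same E-box, so the 6 matches lie at 5 sites. Matches on both strands were counted, and the overlapping matches were a pair of NF-Y boxes of Fasn that shared 2 bases. Only exact matches to these strings were counted, with N as any base, so variant forms of an element were not sought. A match is a match of letters and was not tested as a binding site.

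**Figure D1:**
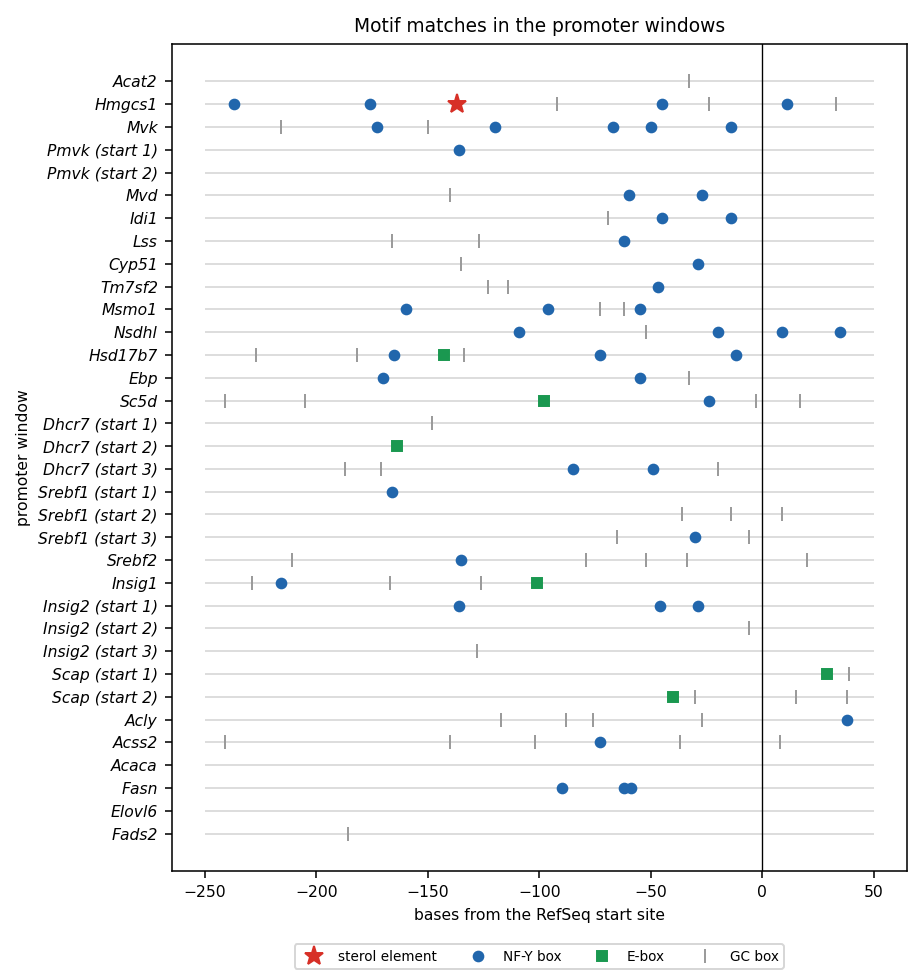
Motif matches in the 34 promoter windows of 26 members, by distance in bases from the RefSeq start site (vertical line). Blue points mark the NF-Y box (22 of 34 windows), the red star the sterol element (1 window), green squares the E-box (6) and grey ticks the GC box (26).

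The 6 libraries held 12529874 to 15379496 counts. Replicates of each group differed by more than sampling noise (chi-square per degree of freedom 26.2 to 64.5). Levels of one gene across libraries are given as CPM, the library-scaled counts that edgeR gives after TMM normalization. A gene is called higher or lower at a Benjamini-Hochberg adjusted p under 0.05 in edgeR's quasi-likelihood test over all 17113 genes. Of the 10 macrophage markers, 9 were tested, and their summed level of 31700 to 54600 CPM was mostly that of Lyz2, which encodes lysozyme. Csf1r, the receptor for the macrophage growth factor, stood at 19.6 to 54.4 CPM. Adgre1, which encodes F4/80, was below the filter at 0.394 to 0.674 CPM. In these bulk samples, fewer cells of a type and less RNA per cell cannot be told apart.

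Levels of different genes are compared on the FPKM that the authors deposited, summed per gene, which divide counts by transcript length. Insig1 had the highest FPKM of the 33 genes in each of the 6 libraries: 67.05 and 45.89 in control, 336.6 and 222.5 in LPS, with 100.9 and 68.48 in LPS+HACA. In control, Scap (15.5 and 15.1 FPKM), Cyp51 (20.7 and 9.44 FPKM), Idi1 (20.6 and 9.32 FPKM), the desaturase gene Scd2 (21.2 and 7.79 FPKM), Stard4 (16.1 and 9.74 FPKM) and Fads2 (17.7 and 5.03 FPKM) were the next 6 by their mean. These 6 did not differ from one another beyond the spread of their libraries, and their order differed between the 2 libraries. In LPS, Idi1 (160.9 and 62.93 FPKM) and Cyp51 (122.8 and 66.95 FPKM) stood next below Insig1, and their ranges overlapped each other. Fasn, which encodes fatty acid synthase, was at 1.60 and 2.45 FPKM in control and 5.51 and 5.84 FPKM in LPS. Acat2, the thiolase that opens the mevalonate pathway, was near the bottom at 0.153 and 0.171 FPKM in control. The authors' FPKM divide by whole transcript lengths, while reads shared between transcripts appear mostly not counted. Bases found in 1 transcript only were 88.3% of the exonic bases of Insig1, 23.9% of those of Fasn and 18.4% of those of Acat2, so a low FPKM and a small countable part cannot be told apart.

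LPS against control asked how these genes differed after LPS. Of the 33 members, 16 were called higher and 1 lower, 14 of the 16 outside the fatty acid genes, where 15.9% and 14.3% of all tested genes were called higher and lower. The largest rises were those of the sterol reductase gene Hsd17b7 (8.05-fold), the isomerase gene Idi1 (7.46-fold), the synthase gene Hmgcs1 (6.92-fold) and the demethylase gene Cyp51 (6.28-fold). Fads1, a desaturase of polyunsaturated fatty acids, fell 8.30-fold. The median log2 fold change of the 33 was 1.16, and that of all tested genes was -0.05. Both LPS libraries lay above both control libraries for 21 members and below them for 3, where 31.4% and 35.3% of all tested genes did so. Scaled by library totals, the median over all genes shifted to -0.69, 9 members were called higher and 2 lower (Ebp and Fads1), and 1417 of all genes were called higher and 5111 lower, against 2715 and 2442. Without control replicate 1 or 2, fewer members and fewer of all genes were called higher. The members' median was then 1.19 in both fits, against -0.04 and -0.07 over all genes.

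**Figure D2:**
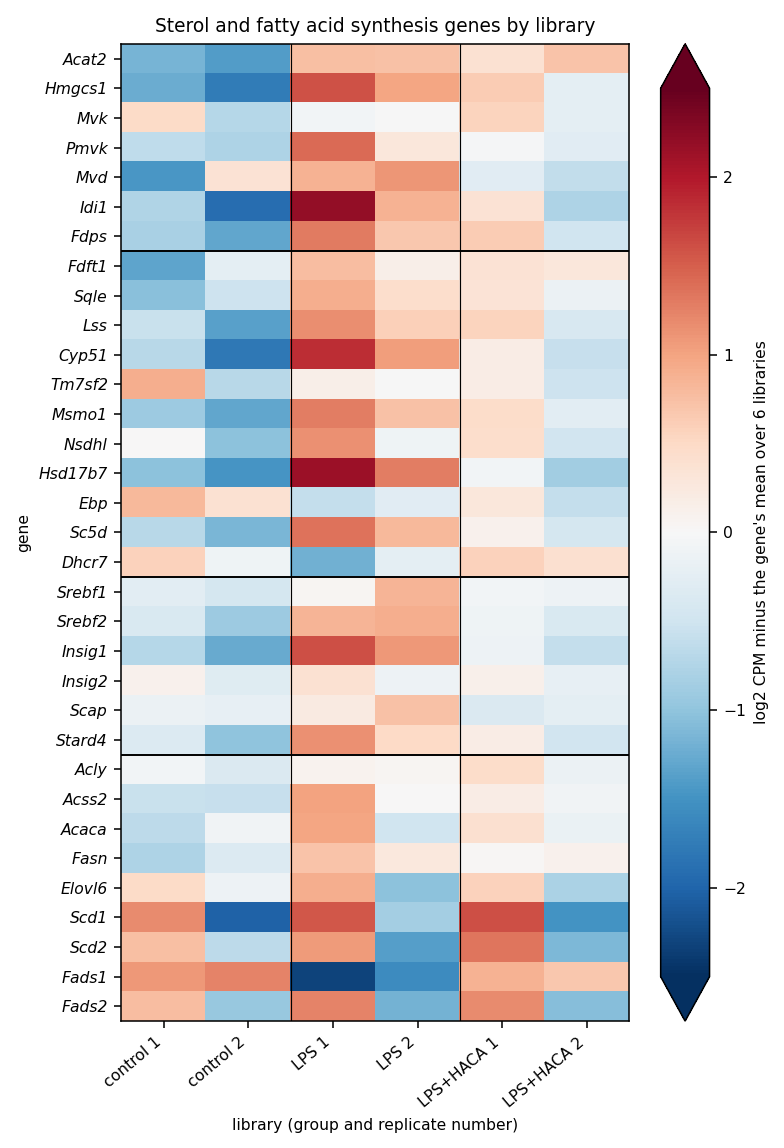
Level of each member in each library, as log2 CPM minus the gene's mean over the 6 libraries, with rows in pathway order and horizontal lines between mevalonate steps, squalene to cholesterol, SREBP control and sterol transport, and fatty acid genes. Most sterol rows are red in the LPS columns, Fads1 is blue there, and Scd1, Scd2 and Fads2 are red in replicate 1 of every group.

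Among the 7 genes of the mevalonate steps, 5 were called higher, with a median of 1.98. Hmgcs1, which encodes the synthase that makes HMG-CoA, was at 4.58 and 3.24 CPM in control, 32.8 and 21.5 CPM in LPS, and 16.8 and 9.20 CPM in LPS+HACA. Both LPS libraries were above the other 4. Its log2 fold change in LPS was 2.79 ± 0.40 (SE, edgeR's quasi-likelihood adjusted p = 0.00204). Idi1, the isomerase of the isoprenoid building blocks, was at 61.2 and 27.4 CPM in control, 473 and 188 CPM in LPS, and 133 and 59.9 CPM in LPS+HACA. Both LPS libraries were again the highest, but they lay 2.52-fold apart, and the 2 control libraries 2.23-fold apart. The log2 fold change of Idi1 was 2.90 ± 0.67 (edgeR adjusted p = 0.0238), a call lost without control replicate 2 or without LPS replicate 1 or 2 (adjusted p = 0.0898, 0.122 and 0.0618).

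Fdps, which encodes the synthase that joins isoprenoid units into farnesyl diphosphate, was at 7.97 and 5.69 CPM in control, 34.4 and 22.3 CPM in LPS, and 21.8 and 9.94 CPM in LPS+HACA. The groups did not overlap between control and LPS, and the log2 fold change was 2.05 ± 0.43 (edgeR adjusted p = 0.00971). Pmvk, the second of the kinases that act on mevalonate, was at 2.38 and 2.18 CPM in control, 9.85 and 4.53 CPM in LPS, and 3.64 and 3.04 CPM in LPS+HACA (1.65 ± 0.43, edgeR adjusted p = 0.0235). Without control replicate 1 or 2, Fdps (adjusted p = 0.0511 and 0.0888) and Pmvk (0.123 and 0.14) no longer passed, and without LPS replicate 1 Pmvk did not (0.0935). Acat2 had 5 and 4 counts in control, 12 and 12 in LPS, with 15 and 17 in LPS+HACA. It passed the filter only through the LPS and LPS+HACA libraries, so it had to differ, and its call (1.98 ± 0.63, edgeR adjusted p = 0.0464) was lost without any 1 of the 4 libraries compared (adjusted p = 0.0993 to 0.196). Mvk, the mevalonate kinase, stood at -0.04 ± 0.54 (edgeR adjusted p = 0.965). Mvd, the decarboxylase that makes the first isoprenoid diphosphate, stood at 1.26 ± 0.64 (edgeR adjusted p = 0.171).

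From squalene to cholesterol, 6 of 11 genes were called higher and none lower, with a median of 1.45. Hsd17b7, which encodes the enzyme that reduces the keto group left after demethylation, was at 19.4 and 14.3 CPM in control, 175 and 96.0 CPM in LPS, and 37.7 and 21.8 CPM in LPS+HACA. The 2 LPS libraries stood well above the other 4. Its log2 fold change was 3.01 ± 0.40 (edgeR adjusted p = 0.00146), the largest rise among the members. Cyp51, the lanosterol demethylase, was at 77.9 and 36.4 CPM in control, 455 and 262 CPM in LPS, and 143 and 84.2 CPM in LPS+HACA. Again no control library reached an LPS library, and the log2 fold change was 2.65 ± 0.47 (edgeR adjusted p = 0.00575).

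Msmo1 encodes the oxidase that acts on the methyl groups after Cyp51. It was at 15.7 and 12.0 CPM in control, 71.8 and 49.5 CPM in LPS, and 40.9 and 24.7 CPM in LPS+HACA (LPS against control 2.13 ± 0.34, edgeR adjusted p = 0.00303). Sc5d, a desaturase near the end of the pathway, was at 22.4 and 16.5 CPM in control, 93.3 and 64.0 CPM in LPS, and 39.4 and 26.9 CPM in LPS+HACA (2.02 ± 0.31, edgeR adjusted p = 0.00285). For both genes the 2 LPS libraries were the highest of the 6. The genes that make and close the squalene epoxide rose as well, Lss, the lanosterol synthase, by 1.81 ± 0.42 (edgeR adjusted p = 0.0148) and Sqle, the squalene epoxidase, by 1.45 ± 0.35 (adjusted p = 0.0167). Sqle was at 3.45 and 5.03 CPM in control and 13.5 and 9.73 CPM in LPS, and Lss at 10.1 and 5.75 CPM and 33.2 and 22.4 CPM. Without control replicate 2 neither passed (adjusted p = 0.0604 for Sqle and 0.115 for Lss), nor did Sqle without control replicate 1 (0.142).

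The other 5 genes of this stretch did not pass. Nsdhl, which removes the carboxyl group formed by Msmo1, stood at 1.07 ± 0.54 (edgeR adjusted p = 0.175), and its libraries overlapped. Fdft1, the squalene synthase, was at 0.627 and 1.32 CPM in control and 2.66 and 1.73 CPM in LPS (1.17 ± 0.52, edgeR adjusted p = 0.127). Values below zero were found for Ebp, a sterol isomerase (-1.03 ± 0.49, edgeR adjusted p = 0.148), Dhcr7, the reductase that yields cholesterol (-0.91 ± 0.57, adjusted p = 0.261), and Tm7sf2, a sterol reductase (-0.25 ± 0.65, adjusted p = 0.803). For Ebp and Dhcr7 both LPS libraries were below both control libraries: Ebp at 1.08 and 1.35 CPM against 2.89 and 2.12 CPM, and Dhcr7 at 0.493 and 0.963 CPM against 1.69 and 1.06 CPM. By counts over library totals, which the filter uses, neither LPS library reached the cutoff for Dhcr7. It passed only through the control and LPS+HACA libraries, where it is high, so its lower level in LPS carries that limit.

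**Figure D3:**
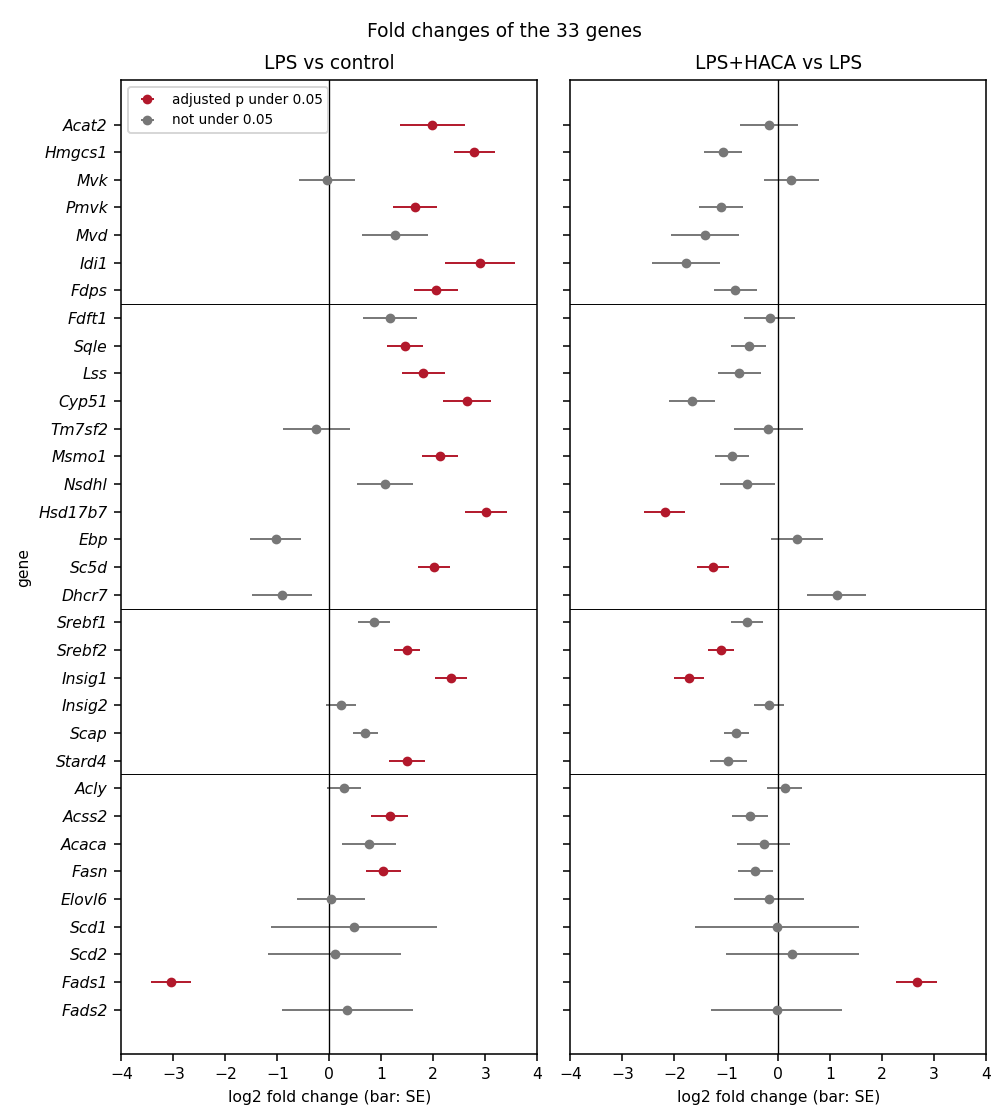
Log2 fold change of each member in LPS against control and in LPS+HACA against LPS, with bars for the SE and horizontal lines between the 4 pathway groups. Red points have an edgeR adjusted p under 0.05: 17 in the left panel (16 to the right of 0 and Fads1 to the left), and 5 in the right panel (Hsd17b7, Sc5d, Srebf2 and Insig1 below 0, Fads1 above 0); both panels use the same LPS libraries.

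Of the 6 genes for SREBP control and sterol transport, 3 were called higher, with a median of 1.17. Insig1, which retains the precursor and is itself a known target of the factors, was at 171 and 118 CPM in control, 863 and 597 CPM in LPS, and 257 and 187 CPM in LPS+HACA. Both LPS libraries exceeded all the others, and the log2 fold change was 2.34 ± 0.30 (edgeR adjusted p = 0.00128). Its paralogue Insig2 was at 19.7 and 14.9 CPM in control, 23.9 and 16.8 CPM in LPS, and 20.0 and 15.8 CPM in LPS+HACA. These libraries overlapped, and the log2 fold change was 0.23 ± 0.29 (edgeR adjusted p = 0.588). The difference between the paralogues was not tested.

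Srebf2, the factor of the sterol genes, was at 48.6 and 33.7 CPM in control, 114 and 118 CPM in LPS, and 58.8 and 48.5 CPM in LPS+HACA. The LPS libraries were close together and above the rest, and the log2 fold change was 1.50 ± 0.25 (edgeR adjusted p = 0.00401, and 0.0511 without control replicate 2). Srebf1 was at 10.7 and 9.52 CPM in control, 13.4 and 23.3 CPM in LPS, and 12.4 and 11.8 CPM in LPS+HACA (0.86 ± 0.31, edgeR adjusted p = 0.0718). Scap was at 62.4 and 59.6 CPM in control, 81.0 and 115 CPM in LPS, and 53.7 and 58.1 CPM in LPS+HACA (0.69 ± 0.24, edgeR adjusted p = 0.062). For both, the LPS libraries were the highest, without a call. Stard4, a cytosolic carrier of sterol between membranes, was at 79.0 and 49.5 CPM in control, 220 and 140 CPM in LPS, and 113 and 72.0 CPM in LPS+HACA. It rose by 1.49 ± 0.35 (edgeR adjusted p = 0.0158, and 0.125 without control replicate 2).

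The 9 genes of fatty acid synthesis, elongation and desaturation had 2 called higher and 1 lower, with a median of 0.34. Acss2, which makes acetyl-CoA from acetate, was at 8.91 and 8.86 CPM in control, 26.5 and 13.2 CPM in LPS, and 14.9 and 12.4 CPM in LPS+HACA (1.16 ± 0.35, edgeR adjusted p = 0.0408). Fasn was at 2.89 and 3.90 CPM in control, 8.08 and 5.88 CPM in LPS, and 4.98 and 5.27 CPM in LPS+HACA (1.04 ± 0.34, edgeR adjusted p = 0.0497). In both, each LPS library was above each control library. Neither passed without either control library or without LPS replicate 1 (adjusted p = 0.15 to 0.185 for Acss2 and 0.13 to 0.283 for Fasn). Acly, the citrate lyase that supplies cytosolic acetyl-CoA, stood at 0.28 ± 0.33 (edgeR adjusted p = 0.563), Acaca, the carboxylase that makes malonyl-CoA, at 0.77 ± 0.52 (adjusted p = 0.297), and the elongase gene Elovl6 at 0.03 ± 0.66 (adjusted p = 0.978).

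Fads1 fell in LPS. It had 117 and 123 counts in control, 7 and 12 in LPS, with 104 and 81 in LPS+HACA, which is 7.34 and 8.14 CPM, 0.690 and 1.16 CPM, and 6.32 and 5.48 CPM. The LPS libraries were far below the other 4, which lay close together, and 1 of the 2 reached the filter's cutoff. The log2 fold change in LPS was -3.05 ± 0.39 (edgeR adjusted p = 0.00121). Fads1 lies on chromosome 19 (10182888 to 10196877, plus strand, GRCm38), and Fads2, which encodes the other front-end desaturase of polyunsaturated fatty acids, lies beside it (10062765 to 10101746, minus strand). Fads2 was at 53.9 and 16.3 CPM in control, 74.8 and 13.9 CPM in LPS, and 71.4 and 15.1 CPM in LPS+HACA (0.34 ± 1.26, edgeR adjusted p = 0.873). Scd1 and Scd2, the stearoyl-CoA desaturases, share the same chromosome (Scd2 at 44293674 to 44306864, Scd1 at 44394455 to 44407879). Their log2 fold changes were 0.47 ± 1.60 and 0.10 ± 1.28 (edgeR adjusted p = 0.86 and 0.965), with SEs larger than the values.

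LPS+HACA against LPS asked how the genes differed when HACA was given with LPS. It uses the same LPS libraries as the first comparison, so opposite signs in the pair are not independent. Of the 33 members, 4 were called lower (Hsd17b7, Insig1, Sc5d and Srebf2) and 1 higher (Fads1), where 7.67% and 5.74% of all tested genes were called lower and higher. At an unadjusted p under 0.05, 11 were lower and 1 higher, where 15.5% and 15.3% of all tested genes were. The median log2 fold change was -0.57, against 0.06 over all tested genes. Both LPS+HACA libraries lay below both LPS libraries for 18 members and above them for 2, where 27.3% and 30.3% of all tested genes did so. Scaled by library totals, the median over all genes shifted to 0.70 and the members' median to 0.07. Under that scaling 1 member was called lower (Hsd17b7) and 2 higher (Dhcr7 and Fads1), where 3.05% and 20.5% of all tested genes were. Dhcr7 passed the filter only through groups other than LPS. Relative to all genes, the members' median was -0.63 under both scalings. Without LPS+HACA replicate 1 or 2, fewer members and fewer of all genes were called lower. The members' median was then -1.10 and -0.36, against 0.05 over all genes in both fits.

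Hsd17b7 had the largest fall, 4.56-fold, from 175 and 96.0 CPM in LPS to 37.7 and 21.8 CPM in LPS+HACA (-2.19 ± 0.39, edgeR adjusted p = 0.013). Insig1 fell 3.29-fold, from 863 and 597 CPM to 257 and 187 CPM (-1.72 ± 0.29, edgeR adjusted p = 0.0118). Both LPS+HACA libraries lay between the LPS and the control libraries for these 2 genes. Sc5d fell by 1.25 on the log2 scale (± 0.31, edgeR adjusted p = 0.0356) and Srebf2 by 1.11 (± 0.25, adjusted p = 0.027). None of the 4 passed without LPS+HACA replicate 2 (adjusted p = 0.0653 for Hsd17b7, 0.0699 for Insig1, 0.185 for Sc5d and 0.159 for Srebf2). Without LPS+HACA replicate 1, Sc5d (0.0928) and Srebf2 (0.111) did not pass, and without LPS replicate 1 Sc5d did not (0.0607). Fads1 rose 6.33-fold (2.66 ± 0.39, edgeR adjusted p = 0.00757), with both LPS+HACA libraries above both LPS libraries.

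With edgeR's quasi-likelihood test the mevalonate genes had no call in LPS+HACA against LPS, where 3 were lower at an unadjusted p under 0.05. DESeq2 called 1 lower (Idi1), with 9.78% of all its genes. The fit without the filter called 2 lower (Hmgcs1 and Idi1), with 6.03% of all genes. Without LPS replicate 2, Pmvk was called lower. Their median was -1.06, and 6 of the 7 had both LPS+HACA libraries below both LPS libraries. Idi1 stood at -1.78 ± 0.65 (edgeR adjusted p = 0.128) and Hmgcs1 at -1.06 ± 0.37 (adjusted p = 0.0996). In the squalene to cholesterol stretch the median was -0.60. Cyp51, at -1.66 ± 0.45, missed the threshold (edgeR adjusted p = 0.0528, with 0.0496 under RLE scaling, 3.69e-07 without the filter and 0.00258 with DESeq2, which call it lower; limma-voom and library totals did not), and Dhcr7 stood at 1.12 ± 0.56 (adjusted p = 0.221). Dhcr7 had passed the filter without either LPS library reaching its cutoff. Among the control genes the median was -0.88, with Scap at -0.81 ± 0.24 (edgeR adjusted p = 0.0608) and Stard4 at -0.96 ± 0.35 (adjusted p = 0.106). The fatty acid genes had a median of -0.03 and the 1 rise, that of Fads1.

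LPS+HACA against control compared the cells given both agents with the control, on the same control libraries as the first comparison. With edgeR's quasi-likelihood test none of the 33 members was called in either direction, where 0.894% and 0.257% of all tested genes were called higher and lower. At an unadjusted p under 0.05, 7 members were higher and 0 lower, where 7.02% and 4.66% of all tested genes were. DESeq2, which gave an adjusted p for 29 members, called 2 higher (Hmgcs1 and Msmo1) and 3.57% of all its genes, and limma-voom called none and 0.812%. Without the filter 5 were called higher (Hmgcs1, Idi1, Fdps, Cyp51 and Msmo1), with 2.27% of all genes. The median log2 fold change was 0.48, against 0.00 over all tested genes, and it was 1.12 for the mevalonate genes, 0.82 from squalene to cholesterol, 0.32 for the control genes and 0.40 for the fatty acid genes. Both LPS+HACA libraries were above both control libraries for 15 members and below them for 3, where 23.4% and 23.1% of all tested genes did so. Hmgcs1 stood at 1.73 ± 0.39 (edgeR adjusted p = 0.097), Msmo1 at 1.24 ± 0.33 (adjusted p = 0.151), Insig1 at 0.62 ± 0.29 (adjusted p = 0.462) and Fads1 at -0.39 ± 0.32 (adjusted p = 0.763). An adjusted p above the threshold does not show that these levels were equal.

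Many members differed by replicate number in every group. In all 3 groups, 20 of the 33 members were higher in replicate 1 than in replicate 2 and 0 were lower, where 20.7% and 20.4% of all tested genes were. The gap was over 2-fold in all 3 groups for Idi1, Scd1, Scd2 and Fads2, 4 of 33 members, where 2.28% of all tested genes had such a gap. Scd2 was at 116 and 43.6 CPM in control, 144 and 26.4 CPM in LPS, and 175 and 31.5 CPM in LPS+HACA. Scd1 was at 9.10 and 0.992 CPM, 11.8 and 2.22 CPM, and 12.3 and 1.42 CPM in the same order. For Scd1, Scd2 and Fads2 each replicate 1 library was above each replicate 2 library whatever the group.

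Markers of cycling and of stromal cells moved with the replicate number as well. Of 19 tested cell cycle markers, 17 were higher in replicate 1 of all 3 groups, and the summed level of the list was 946 and 243 CPM in control, 2270 and 1100 CPM in LPS, and 1800 and 419 CPM in LPS+HACA. Mki67 alone held 497 and 128, 1420 and 988, and 977 and 314 CPM of these sums. In LPS against control, 0 of the 19 were called higher and 1 lower. The 3 tested stromal markers (Col1a1, Col1a2 and Col3a1, which encode fibrillar collagens) were also higher in replicate 1, and the summed level of the 6 was 32.4 to 49.7 CPM in replicate 1 and 1.35 to 2.60 CPM in replicate 2. Dcn, another stromal marker, was at 0 in 5 libraries. Neutrophil markers were higher in replicate 2, with summed levels of 33.7 to 61.4 CPM against 4.74 to 13.0 CPM, while S100a9 and Ly6g were at 0 in all 6 libraries. Of the 6 adipocyte markers Adipoq, Cidec and Lep were at 0 in all 6 libraries, Fabp4 was at 1.88 to 6.61 CPM, and Lpl, a lipase gene that macrophages also express, at 495 to 1610 CPM. The part of these cells in the members' levels was not tested.

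A few markers of other cells moved with treatment. Ighm, the immunoglobulin heavy chain gene of B cells, was at 10.2 and 11.3 CPM in control, 2.86 and 2.70 CPM in LPS, and 12.1 and 6.76 CPM in LPS+HACA, and was called lower in LPS and higher in LPS+HACA against LPS (edgeR adjusted p = 0.00615 and 0.0208). It was 1 of 2 tested of the 5 B and plasma cell markers, whose summed level was 12.0 and 13.6, 3.15 and 3.76, and 13.7 and 8.25 CPM, with Cd79b at 0 throughout. Pf4, a megakaryocyte gene that macrophages can express, was at 9.91 and 7.54 CPM in control, 18.9 and 31.2 CPM in LPS, and 9.66 and 12.1 CPM in LPS+HACA, and was called higher and then lower (edgeR adjusted p = 0.0109 and 0.0469). Hba-a1 and Hbb-bs, hemoglobin genes of the same list, were at 0 throughout. Their part in the members' changes was not tested.

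**Figure D4:**
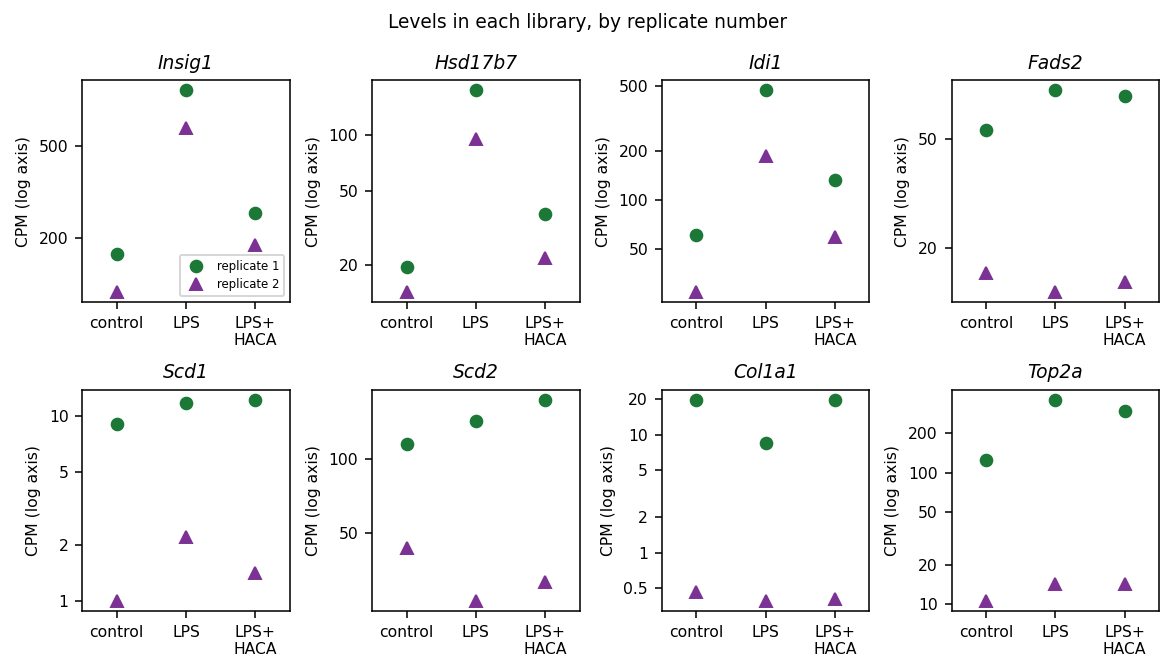
CPM on a log axis in each library by group, for 6 members, the stromal marker Col1a1 and the cell cycle marker Top2a, with replicate 1 as green circles and replicate 2 as purple triangles. Insig1, Hsd17b7 and Idi1 peak in LPS in both replicates, while Scd1, Scd2 and Fads2 separate by replicate and not by group, as do Col1a1 and Top2a.

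The transcripts that held the counts differed between members. For 20 members at least 50% of the counts lay on transcripts annotated as protein coding, and for 13 most lay on others, chiefly transcripts with a retained intron. The 13 were Hmgcs1 (25.4% protein coding), Mvk, Mvd, Fdps, Sqle, Lss, Tm7sf2, Msmo1, Dhcr7, Acly, Acss2, Acaca and Fads1 (27.9%). Reads shared between transcripts appear mostly not counted, so a transcript with few bases of its own can hold few counts whatever its level, and these shares are not measures of splicing. For Sqle and Mvk the protein-coding share was 0%, where the coding transcripts of Sqle have 0 bases of their own and those of Mvk at most 17, and for Mvd 95.7% of the counts lay on a transcript subject to nonsense-mediated decay. Insig1 (97.6%), Cyp51 (98.5%), Hsd17b7 (99.6%) and Sc5d (100%) were measured on protein-coding transcripts. In LPS against control, 10 of the 20 and 6 of the 13 were called higher, and the medians were 1.12 and 1.16.

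Exonic bases that belong to 1 transcript made up from 6.94% (Mvd) to 89.2% (Nsdhl) of a member's exonic bases. Where that share is low, a change in isoform use cannot be told apart from a change in level. On protein-coding transcripts alone, a fit chosen after the data were seen, 26 members were tested. In LPS 11 were called higher and 1 lower, where 1447 and 1241 of all 9089 genes tested were. In LPS+HACA against LPS 4 were called lower, where 638 of the 9089 were. The rise of Fads1 in LPS+HACA then missed the threshold (edgeR adjusted p = 0.079). Its coding transcript with the most counts, Fads1-205, had 30 and 39 counts in control, 1 and 5 in LPS, with 20 and 24 in LPS+HACA, and the retained-intron transcript Fads1-206 had 40 and 48, 4 and 3, and 28 and 37. Both were lowest in the LPS libraries. A minor coding transcript, Hsd17b7-202, had 14 and 8 counts in LPS and 9 and 5 with HACA added, against 0 in both control libraries.

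**Figure D5:**
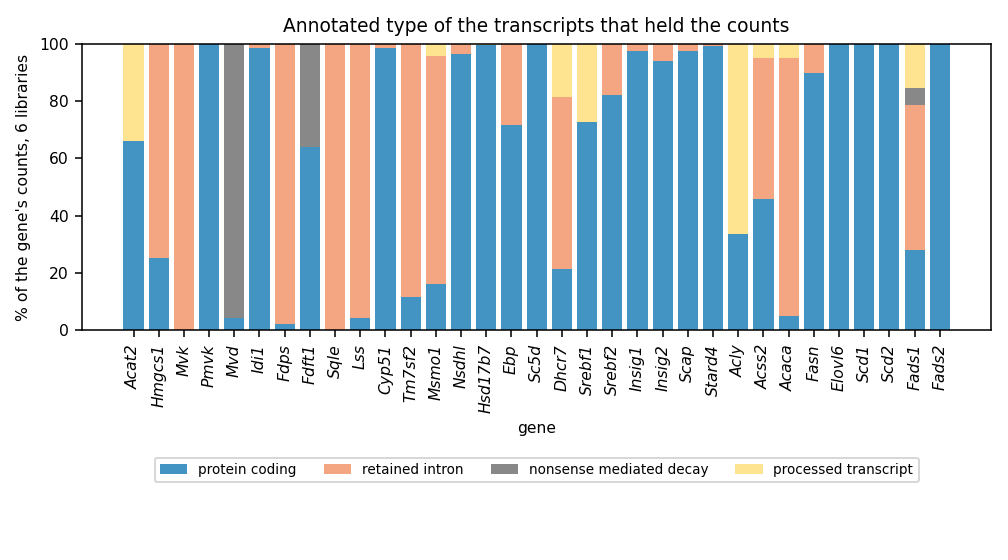
Share (%) of each member's counts, summed over the 6 libraries, that lay on transcripts of each annotated type. The shares depend on how many bases a transcript shares with no other: retained-intron transcripts held all counts of Mvk and Sqle and 97.8% of those of Fdps, while Insig1, Hsd17b7, Sc5d and Cyp51 were almost wholly protein coding.

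Some members share sequence with other genes, and the strand used in counting is not given in the sources used here. Idi1 matched the pseudogene Gm13502 at 100% over 684 bases. That copy had 383 and 116 counts in control, 1858 and 762 in LPS, with 775 and 272 in LPS+HACA, also highest in LPS. Hmgcs1 overlaps Gm48342 on the opposite strand, which had 71 and 56 counts in control, 369 and 233 in LPS, with 262 and 154 in LPS+HACA, and without strand the reads of the pair cannot be told apart. Fdft1 overlaps Ctsb, the cathepsin B gene, on the opposite strand over 774 bases, and Ctsb had 76951 to 131623 counts per library, so the low level of Fdft1 is uncertain. Acaca matched Gm5182 (99.2% over 6118 bases), Fdps matched Gm3571 (98.9% over 1062), Acat2 matched Acat3 (97.7% over 1477), and Scd1 matched Scd2 (95.5% over 623). Tm7sf2, with 10 to 32 counts per library, matched Vps51 on its own strand (100% over 532 bases), which had 183 to 353. Exons of Acss2, Cyp51, Lss, Srebf1, Scap and Elovl6 also overlap those of genes on the opposite strand. The levels of these genes are uncertain to that extent.

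The wider pathway was read from 4 further lists, to be set against the 15.9% and 14.3% of all tested genes called higher and lower in LPS and the 5.74% and 7.67% in LPS+HACA against LPS. Of 11 genes for SREBP processing and turnover, 3 were called higher in LPS and 0 lower (median 0.23), and 2 were lower in LPS+HACA against LPS (median -0.19). Rnf145, a ubiquitin ligase of the endoplasmic reticulum that targets Scap, was at 66.2 and 77.5 CPM in control, 227 and 317 CPM in LPS, and 108 and 124 CPM in LPS+HACA. Its changes were 1.92 ± 0.24 in LPS (edgeR adjusted p = 0.00125) and -1.23 ± 0.24 in LPS+HACA against LPS (adjusted p = 0.0178). Rnf139, another such ligase, rose by 1.19 ± 0.21 (edgeR adjusted p = 0.00483) and fell by 0.88 on the log2 scale (± 0.21, adjusted p = 0.032).

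In the isoprenoid and prenylation branch, 11 of 12 genes were tested and 1 was called higher in LPS, Pdss1, which builds the side chain of coenzyme Q (0.95 ± 0.25, edgeR adjusted p = 0.0244). The median there was 0.28, and no gene was called in LPS+HACA against LPS by edgeR, or had an unadjusted p under 0.05. Of 20 other lipogenic and acyl-CoA genes 13 were tested, with 7 called higher and 1 lower in LPS and 5 lower and 1 higher in LPS+HACA against LPS (medians 0.93 and -0.73). Acsl1, which activates long-chain fatty acids, was at 28.0 and 39.0 CPM in control, 324 and 650.0 CPM in LPS, and 87.2 and 141 CPM in LPS+HACA. Its changes were 3.86 ± 0.42 in LPS (edgeR adjusted p = 0.000682) and -2.10 ± 0.39 in LPS+HACA against LPS (adjusted p = 0.0154). Acsl5, a related synthetase, rose by 2.26 ± 0.23 (edgeR adjusted p = 0.00055), and Hsd17b12, the ketoacyl reductase of elongation, by 2.89 ± 0.43 (adjusted p = 0.00246). In LPS+HACA against LPS Acsl5 stood at -1.73 ± 0.23 (edgeR adjusted p = 0.00569) and Hsd17b12 at -1.90 ± 0.41 (adjusted p = 0.0234). Lpin1, a phosphatidate phosphatase, was at 9.35 and 12.2 CPM in control, 0.493 and 0.193 CPM in LPS, and 2.79 and 2.57 CPM in LPS+HACA (LPS against control -4.94 ± 0.48, edgeR adjusted p = 0.000442; LPS+HACA against LPS 2.94 ± 0.49, adjusted p = 0.0112). No LPS library reached the filter's cutoff, so Lpin1 passed only through the other 2 groups, where it is high.

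For sterol sensing, esterification and efflux, 10 of 12 genes were tested, with 2 called higher and 2 lower in LPS (median -0.14) and 1 higher and 2 lower in LPS+HACA against LPS (median -0.15). Ch25h makes an oxysterol that blocks SREBP processing. It was at 0.565 and 0.0661 CPM in control, 39.5 and 15.8 CPM in LPS, and 4.86 and 3.45 CPM in LPS+HACA. No control library reached the filter's cutoff, so Ch25h, like Acat2, passed only through the groups where it is high. It was called higher in LPS (6.39 ± 0.78, edgeR adjusted p = 0.0013) and was lower in LPS+HACA than in LPS (-2.73 ± 0.61, adjusted p = 0.0284). Soat1, which esterifies cholesterol for storage, was at 373 and 395 CPM in control, 113 and 93.6 CPM in LPS, and 215 and 244 CPM in LPS+HACA (-1.90 ± 0.21, edgeR adjusted p = 0.000719, then 1.16 ± 0.21, adjusted p = 0.0134). Cyp27a1, a mitochondrial sterol hydroxylase, fell by 1.82 on the log2 scale (± 0.38, edgeR adjusted p = 0.00979) in LPS. Osbp, a sterol transfer protein, rose by 0.79 ± 0.20 in LPS (edgeR adjusted p = 0.0227) and fell by 0.83 (± 0.20, adjusted p = 0.0365) in LPS+HACA against LPS.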

How the data were processed

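Poly-A RNA libraries were made with TruSeq chemistry, per the labels' protocols. STAR 2.5.4b, Trim Galore and CASAVA are named in the submitters' processing notes beside GRCm38 and GRCh38, as are DESeq2 1.26.0, edgeR 3.28.1 and limma, without roles. What counted the reads is not given in the sources used here. Raw counts and FPKM per transcript were deposited by the authors, per the file headers. Of 142647 transcripts, 141524 matched GENCODE vM21 and were summed into 55263 genes; 1123 others, with up to 0.115% of the counts, were left out. FPKM were used only to compare levels between genes.

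Genes were filtered with filterByExpr (minimum count 10, CPM cutoff 0.746) and scaled with TMM, and 1 edgeR 4.0.16 quasi-likelihood model with the group as its term (3 residual degrees of freedom, R 4.3.3) was fitted to all 6 libraries. The SE is the log2 fold change over the root of its F. The procedure was tested on simulated counts with known changes in a small part of the genes. That simulation had no effect of replicate number and no broad shift between groups, so it does not show how the procedure handles these. Alternatives were RLE scaling, library totals, no filter, DESeq2 1.42.0, limma-voom 3.58.1, a replicate block, leaving out each library and, added after seeing the data, protein-coding transcripts only. Copies were sought with BLAST 2.17.0 (95% identity, 300 bases). Promoters came from RefSeq (GRCm38.p6). All 33 members are named; from each other list up to 3 called genes per direction and comparison are named, by fold change, with a mean of at least 1 CPM, and 1 gene that this rule takes is not reported here. The members and lists were chosen with earlier results of these data known.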

Additional observations from a re-analysis of the deposited data

How the results depend on the processing

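Hmgcs1, Cyp51, Msmo1, Hsd17b7, Sc5d, Insig1 and Fads1 kept their calls in LPS against control under all 11 alternatives that give this comparison; the other 10 called members lost theirs under at least 1. Over the members and the alternatives, 884 of 1064 values kept their direction and side of the threshold, 50 lost and 44 gained a call, 86 changed sign without a call, and 0 reversed with a call. Scaled by library totals, 9 members were called higher and 2 lower in LPS against control (median 0.55). Of all tested genes, 8.28% and 29.9% were. In LPS+HACA against LPS 2 members were called higher and 1 lower (median 0.07, a reversed sign), where 20.5% and 3.05% were. By its construction this scaling shifts all genes together. Members lower in LPS+HACA against LPS numbered 8 without the filter (6.03% of all genes) and 7 with DESeq2 (9.78%). Members higher in LPS+HACA against control numbered 5 (2.27%) and 2 (3.57%) in the same order. On protein-coding transcripts alone, 0 members were higher in LPS+HACA against LPS, where 407 of 9089 genes tested were.

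Leaving out 1 library at a time gave 6 to 15 members higher in LPS against control and 0 to 5 lower in LPS+HACA against LPS; a group left with 1 library is assumed to vary like the others. With the replicate number as a block, 19 members were higher and 1 lower in LPS against control. In LPS+HACA against LPS 1 was higher and 12 lower (Hmgcs1, Idi1, Fdps, Lss, Cyp51, Msmo1, Hsd17b7, Sc5d, Srebf2, Insig1, Scap and Stard4). In LPS+HACA against control 9 were higher (Hmgcs1, Idi1, Fdps, Lss, Cyp51, Msmo1, Hsd17b7, Sc5d and Insig1). Calls over all genes rose under the same block, from 2715 to 3506 higher and 2442 to 3384 lower in LPS against control, from 983 to 1955 and 1312 to 2356 in LPS+HACA against LPS, and from 153 to 628 and 44 to 307 in LPS+HACA against control. The replicate differences of the groups correlated across genes at 0.308 to 0.509, but 2 numbers per group and labels that name no shared source leave the pairing unsettled. The cause of the other changes was not tested. With 2 libraries a group, members under about 1 CPM rest on few counts.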
